A study of Mus musculus with 2 samples.

Results

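Interferon beta transcripts were found in a small set of epithelial cells of the control mouse uterus, and the 75 cells that carried them are described here. A cell was taken as epithelial when Epcam, Cdh1, Krt7, Krt8, Krt18 and Krt19, 6 genes of epithelial adhesion and keratin filaments, together gave at least 0.3% of its unique molecular identifiers (UMIs, each counting 1 captured transcript). At least 3 of the 6 genes had to be detected, and Ptprc, which encodes the leukocyte antigen CD45, had to be at 0. The control library held 1151 such cells, of which 75 also had at least 1 Ifnb1 UMI. These 75 were drawn from 8603 cells in all, 3653 of them in the control library. The cells were thus chosen by their Ifnb1 count and gate genes, so their Ifnb1 level is a description and not a finding.

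The tissue was whole uterus of mice aged 6 months, minced and digested with collagenase and DNase, and sequenced by droplet capture of transcript 3′ ends. Control mice carried the floxed Prickle1 alleles without a Cre (Prickle1 f/f). The comparison group (cKO) carried the same floxed alleles together with a Cre driven from Ltf, the lactoferrin gene, which is transcribed in uterine epithelium. For each group the uteri of 3 mice were pooled into 1 library. A genotype entry in the labels calls both libraries C57BL/6J wild-type, so the group names used are those in the titles. Prickle1, the targeted gene, had 18 UMIs in 1151 epithelial cells of the control library (1.01 CPM, the gene's UMIs over all UMIs of the group, scaled alike throughout) and 8 UMIs in 73 epithelial cells of the library labelled cKO (3.35 CPM). Where the deleted part lies relative to the captured 3′ end is not given in the sources used here, so these counts check no label. The control library totalled 45035801 UMIs with a median of 4650 UMIs per cell, and the library labelled cKO 57145553 with a median of 5944. With 1 library per group, no difference has a replicate check, no p-value is given, and every interval is a 95% interval for counting error only.

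Ifnb1 encodes interferon beta, a secreted type I interferon. Cells commonly transcribe it after sensors such as RIG-I, MDA5, TLR3 or cGAS detect nucleic acid and activate the factors IRF3, IRF7 and NF-kB. The protein binds the receptor IFNAR1/IFNAR2 on the same or neighbouring cells, and factors that include STAT2 and IRF9 then raise transcription of antiviral genes, chemokines and antigen presentation genes. Type III interferons (interferon lambda, Ifnl2 and Ifnl3 in the mouse) start the same programme through IFNLR1, a receptor largely found on epithelia. Uterine epithelium is also known for constitutive interferon epsilon, encoded by Ifne.

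Ifnb1 (ENSMUSG00000048806) lies on the minus strand at chr4:88522025-88522774 in GRCm38 and has 1 exon. Across the 75 cells it was counted between 1 and 127 times per cell, with a median of 3 and a total of 890 UMIs. The cells were uneven: 20 had a single UMI, 31 had 2 to 9 and 24 had 10 or more. The highest 5 cells held 46.1% of all Ifnb1 UMIs, and the 24 cells with 10 or more held 84.4%. The 20 cells with 1 UMI together gave 2.25%. Per cell the level ranged from 8.78 to 3805 CPM with a median of 247 CPM. The scatter of Ifnb1 against total UMIs shows cells with 10 or more Ifnb1 UMIs at both shallow and deep totals.

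**Figure D1:**
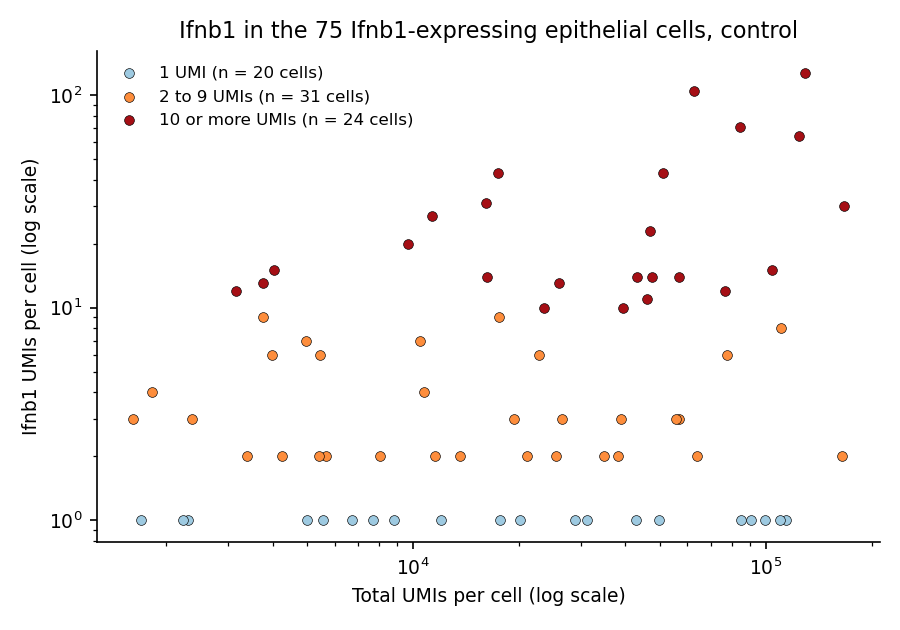
Ifnb1 UMIs per cell (log scale) against the total UMIs of the cell (log scale) for the 75 Ifnb1-expressing epithelial cells of the control library, 1 point per cell, coloured by Ifnb1 count. Ifnb1 counts run from 1 to 127, and totals from 1607 to 166886.

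The Ifnb1-expressing cells were deeply captured. Their totals ran from 1607 to 166886 UMIs with a median of 21125, against a median of 4415 in the 1076 control epithelial cells without an Ifnb1 UMI. Because a rare transcript is more often caught in a deep cell, each Ifnb1-expressing cell was paired with the control epithelial cell nearest in total UMIs that had 0 Ifnb1 UMIs. The 75 matched cells had totals from 1607 to 179040 with a median of 21672, and the largest gap within a pair was 8.70%. Detected genes were also close, with medians of 4106 in Ifnb1-expressing and 4079 in matched cells. Mitochondrial transcripts differed somewhat more, with a median of 6.76% of UMIs in Ifnb1-expressing and 4.67% in matched cells.

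Among all 1151 control epithelial cells, 6.52% had an Ifnb1 UMI (exact binomial interval 5.16% to 8.10%). After each cell was thinned to 1000 UMIs, which left out 15 shallower cells, the share was 2.64% (1.79% to 3.75%), or 30 of 1136 cells. In the control library 0 of 832 cells of a collagen-expressing gate had an Ifnb1 UMI, which allows a share of up to 0.361% with a UMI. Such a limit does not bound the cells that express the gene without a captured transcript. Those cells had a median of 8378.5 UMIs, above that of the epithelial cells, and held 9132729 UMIs in all. Among Ptprc-positive cells 5 of 775 had Ifnb1 (0.645%, interval 0.210% to 1.50%, median depth 6629 UMIs), and 79 of their 102 Ifnb1 UMIs lay in 1 cell. Barcodes with at most 100 UMIs, taken as cell-free RNA, held 52 Ifnb1 UMIs (20.2 CPM), against 50.2 CPM (46.9 to 53.6) over all control epithelial cells.

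No epithelial cell of the library labelled cKO had an Ifnb1 UMI, 0 of 73, which allows a share of up to 4.11%. The 73 cells had a median of 15664 UMIs. After thinning, 0 of 71 cells allows up to 4.23%, which is above the thinned control share of 2.64%. Limits over cells cover counting error within 1 library, so these shares are a description of the 2 libraries and not of the genotypes. The same library had Ifnb1 in 2 of 1774 Ptprc-positive cells and 0 of 1695 collagen-gate cells. Effects of the deletion, the mice and the handling of each pool cannot be told apart here.

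The gate itself was met fully by most cells. All 6 gate genes were detected in 62 of the 75 cells, 5 in 6 cells, 4 in 4 cells and 3 in 3 cells. Gate genes gave 0.306% to 2.01% of UMIs (median 0.715%), against a median of 0.801% in matched cells. The cell nearest to the limit inside it was at 0.306%, and the nearest Ifnb1-positive cells outside were at 0.298% and 0.291%. Of 15 further epithelial genes with enough UMIs, 0 differed by 2-fold between Ifnb1-expressing and matched cells, which had passed the same gate, and the median log2 ratio was 0.01. Over all tested genes 2.78% were at least 2-fold higher and 5.45% lower, so 0 of 15 is near the background. Cldn4, a tight junction protein, had 4715 and 4387 UMIs, and Wfdc2, a secreted epithelial protein, had 4768 and 4257.

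Most markers that define other cell types were at or near 0 in the 75 cells. Of 9 macrophage markers 7 were at 0, among them C1qa, C1qb, C1qc, Csf1r and Adgre1. The list's UMIs came almost all from Cd68, a lysosomal protein (260 of 263), and the summed level was 93.2 CPM against 78.7 in matched cells and 2226 in Ptprc-positive cells. Siglech, Ccr9 and Cox6a2 of the plasmacytoid dendritic list were at 0 in both sets, while its other 2 markers, Klk1 and Ly6d, gave 76.2 CPM against 117 in matched cells and 49.1 in Ptprc-positive cells. All 4 neutrophil markers were at 0, and 1 T or NK cell marker UMI was found. Fibroblast markers summed to 32.2 CPM against 249 in matched cells, where 1 cell held 508 of the 703 UMIs.

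Dendritic markers were the exception, at 240 CPM against 96.7 CPM in matched cells, with Itgax and Clec9a at 0. Most of the list's UMIs came from Cd74, H2-Ab1 and H2-Aa, genes of class II antigen presentation, with 523, 75 and 61. In matched cells Cd74 gave 243 of 273. The dendritic markers Flt3, Ccl22 and Fscn1 had 1, 2 and 5 UMIs in the 75 cells. A single cell held 183 of the 677 dendritic-marker UMIs, including all 9 UMIs of Ccr7, a migratory dendritic cell receptor, and it had 81 UMIs of the gate genes and 3 of Ifnb1. A further cell held 49 of the 77 smooth muscle marker UMIs. With these cells and 3 like matched cells left out and the matching repeated, the count of genes at least 2-fold higher stayed at 264 and the count lower went from 518 to 458. A doublet score above 0.25 was given to 0 of the 75 cells, 1 matched cell and 42 control cells in all (1.15%). The 2 libraries shared 5 cell barcodes, 1 of them among the 75.

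Gene levels were compared as summed counts over the 75 Ifnb1-expressing and the 75 matched cells, as CPM of 2822367 and 2822491 UMIs. A log2 ratio here has 0.5 UMI added to each sum, and a gene entered when both sums together reached 20 UMIs. Of 9501 such genes, 264 were at least 2-fold higher in Ifnb1-expressing cells, a background of 2.78%, and 518 were at least 2-fold lower, a background of 5.45%. With edgeR's TMM factor, which moves all log2 ratios by 0.12, the counts were 330 higher and 395 lower. The median over all genes was -0.11. Lists of interferon genes held far larger shares of higher genes than this background, as the plot of log2 ratios by list shows.

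**Figure D2:**
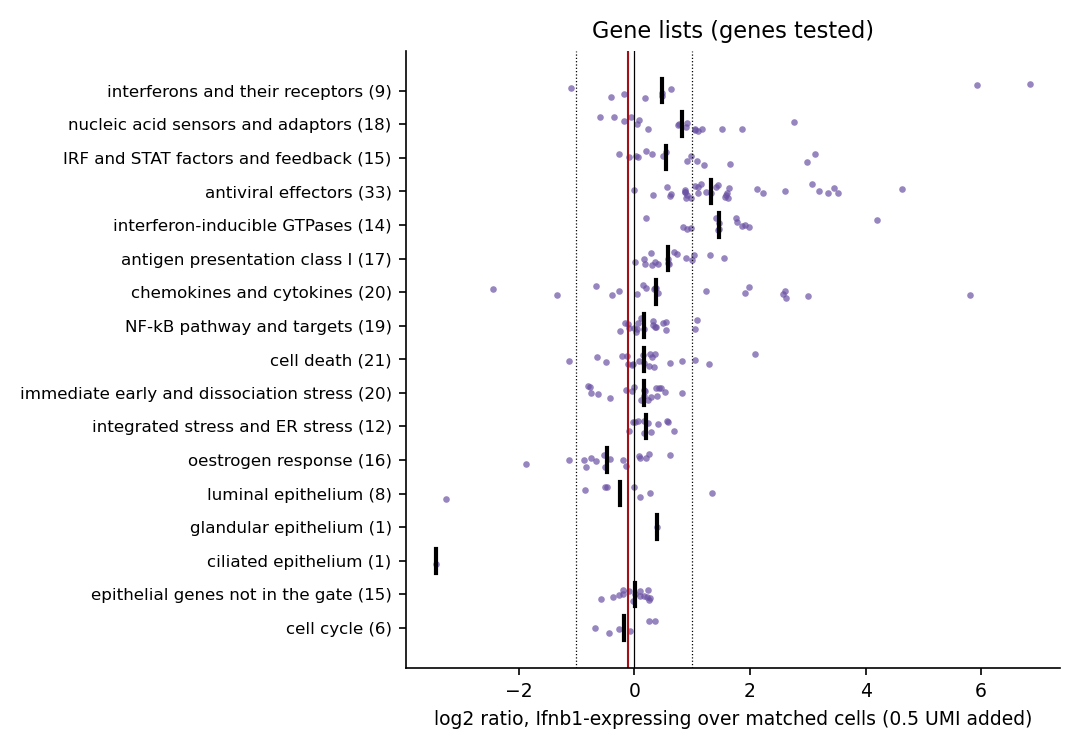
Log2 ratio of summed CPM, Ifnb1-expressing over matched cells, for each tested gene of 17 lists (1 point per gene, number of genes in brackets; black bars are list medians, the red line is the median of all 9501 genes, dotted lines mark 2-fold). Antiviral effectors and interferon-inducible GTPases have medians of 1.33 and 1.47, against -0.11 over all genes.

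Among the interferons, the lambda genes stood out. Ifnl3 had 57 UMIs in 14 of the 75 cells and 0 in matched cells, which makes it at least 19.0-fold higher when the 0 is set to 3 counts. Ifnl2, a near-identical neighbour whose reads may be shared with Ifnl3, had 30 UMIs in 7 cells and 0 in matched cells. Both genes overlap Samd4b, Ifnl3 on the opposite strand and Ifnl2 on the same one. Type I interferons other than Ifnb1 were rare, with 3 UMIs of Ifna4, 2 of Ifnz and 1 of Ifnab. Ifne, a type I gene as well, had 11 UMIs against 24 in matched cells, a ratio of 0.458 (0.203 to 0.972).

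Receptors of these interferons were near their matched level. Ifnar1, a chain of the type I receptor, had 75 and 66 UMIs (ratio 1.14, 0.805 to 1.61), and Ifnar2, its partner, had 63 and 45 (1.40, 0.940 to 2.10). Ifnlr1, the chain particular to the lambda receptor, had 35 and 25 UMIs (1.40, 0.814 to 2.44). All 3 intervals include 1, so no difference was detectable at this depth. Of the 9 tested genes of the list of interferons and receptors, 2 were at least 2-fold higher (Ifnl2 and Ifnl3) and 1 lower (Ifne). Over all genes the shares were 2.78% and 5.45%.

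Of 18 sensors and adaptors of nucleic acid detection, 7 were at least 2-fold higher and 0 lower, against 2.78% and 5.45% over all genes. For a list of this size, 0 lower is near the background. The median log2 ratio was 0.83. Ifih1, which encodes the double-stranded RNA sensor MDA5, had between 0 and 110 UMIs per Ifnb1-expressing cell with a median of 8, and 1232 in all against 181 in matched cells, a ratio of 6.81 (5.82 to 8.0). The groups overlapped, since 44 matched cells also carried it, up to 33 UMIs. Ddx58, which encodes RIG-I, was 1.89-fold higher (1.61 to 2.22) and Zbp1, a sensor of Z-form nucleic acid, 2.86-fold higher (2.39 to 3.43). Ifi204 and Ifi205, of a family of DNA-binding proteins, were 2.16-fold and 3.70-fold higher, and Tlr3, the endosomal double-stranded RNA receptor, was 2.08-fold higher (1.27 to 3.50). Mavs, the adaptor below MDA5 and RIG-I, had 15 UMIs against 23, and Irf3, the factor that sensors activate, had 66 against 62.

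Transcription factors and feedback genes had smaller ratios, with a median log2 ratio of 0.55. Of 15, 5 were at least 2-fold higher and 0 lower, against 2.78% and 5.45% over all genes. Stat2, part of the factor that interferon receptors activate, was 3.16-fold higher (2.67 to 3.75). Irf7, which amplifies type I interferon transcription, was 2.13-fold higher (1.81 to 2.51), with 469 UMIs against 220. Usp18, which dampens receptor signalling, was 2.32-fold higher (1.95 to 2.76), and Irf9, a partner of STAT2, had 214 UMIs against 173. The rarer Irf5 and Batf2 had 30 against 3 and 35 against 4 UMIs.

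Of the antiviral effectors 22 of 33 were at least 2-fold higher and 0 lower, against 2.78% and 5.45% over all genes. Their median log2 ratio was 1.33. The median was 1.76 when cells were matched on mitochondrial share as well. Ifit2, whose protein binds foreign RNA, ranged from 0 to 83 UMIs per Ifnb1-expressing cell with a median of 1 and was present in 43 of 75 cells. Matched cells ranged from 0 to 11 with 7 of 75 positive. The totals of 533 and 21 UMIs gave a ratio of 25.4 (16.4 to 41.3). Ifit2 (chr19:34550694-34576419, plus strand), like Cxcl10 and Gbp5, had been put forward as a marker of these cells from the same data, so its ratio is not independent support.

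Isg15, Rsad2 and Ifit1 were each present in at least 72 of the 75 Ifnb1-expressing cells, and Ifit3 in 67. Isg15, a ubiquitin-like modifier, ranged from 0 to 446 UMIs with a median of 37 and was detected in 74 cells, against 0 to 122 with a median of 4 in matched cells (6.12-fold, 5.72 to 6.55). Rsad2, which encodes viperin, ranged from 0 to 339 with a median of 15 in Ifnb1-expressing cells. In matched cells it ranged from 0 to 99 with a median of 1 (9.12-fold, 8.19 to 10.2). Rsad2 stood at 133 CPM in matched cells but 302 CPM in the 1001 other control epithelial cells without Ifnb1. Its log2 ratio of 3.19 fell as low as 2.17 under other processing choices. Ifit1, a further RNA-binding member of the Ifit family, had 3272 against 297 UMIs (11-fold), and Ifit3 had 1973 against 172 (11.5-fold). Their log2 ratios of 3.46 and 3.52 fell as low as 2.53 and 2.15 under other processing choices. Ifit3 and Ifit3b are close copies whose reads may be shared. Thinned to 1000 UMIs, Isg15 was found in 76.0% of Ifnb1-expressing and 33.3% of matched cells, and Rsad2 in 65.3% and 16%.

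The remaining effectors covered a wide range. Cmpk2, a mitochondrial nucleotide kinase next to Rsad2 in the genome, was 8.50-fold higher and Herc6, an ISG15 ligase in the mouse, 4.39-fold higher. Cmpk2 stood at 26.9 CPM in matched cells but 56.5 CPM in the 1001 other control epithelial cells without Ifnb1. Its log2 ratio of 3.08 fell as low as 2.17 under other processing choices. Oasl1 and Oasl2, of the oligoadenylate synthetase-like family, were 2.72-fold and 3.08-fold higher, while Oas2 and Oas3 had log2 ratios of 0.88 and 0.62. Ifitm3, a membrane protein that restricts virus entry, stood apart, with 2300 UMIs in each set (ratio 1.00, 0.943 to 1.06). The plot of all genes shows most effectors and GTPases above the 2-fold line, while oestrogen response genes lie on both sides of the diagonal.

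**Figure D3:**
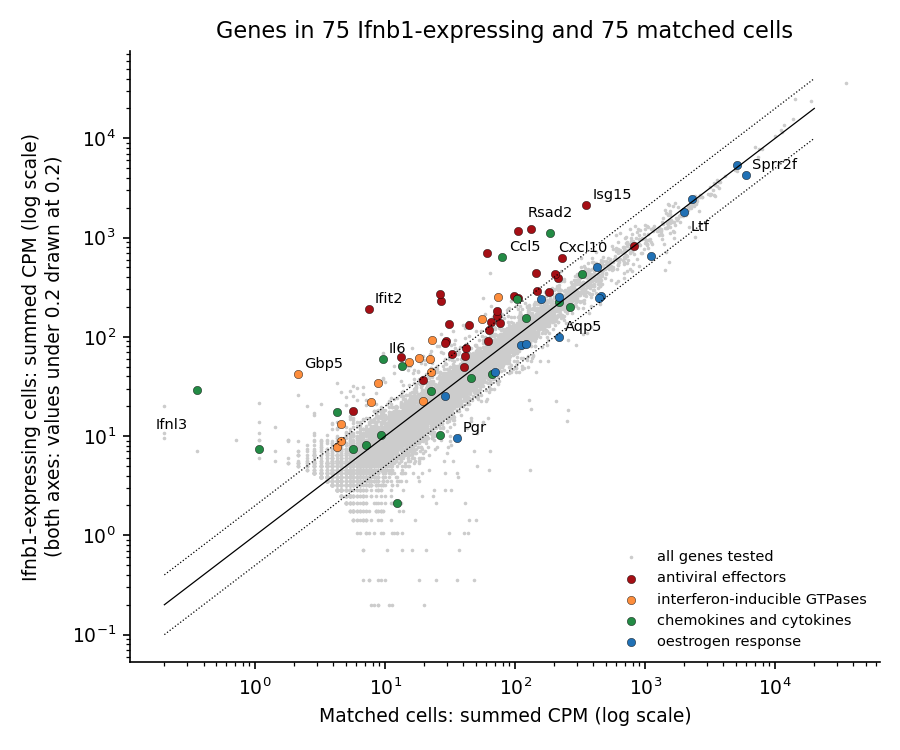
Summed CPM of each of 9501 tested genes in the 75 Ifnb1-expressing cells (vertical, log scale) against the 75 matched cells (horizontal, log scale), 1 point per gene, with 4 lists in colour and values under 0.2 drawn at 0.2. The solid line is equality and the dotted lines 2-fold; Isg15 lies at 2139 against 350 CPM and Ltf at 1818 against 1998 CPM.

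To show motifs known from interferon-responsive promoters in some of the leading genes, stretches upstream of the RefSeq start are given from the GRCm38.p6 promoter table, limited to the part with motif matches and 15 bases on each side. Capitals mark matches on either strand to AANNGAAA (the core of IRF sites, here IRF), to GAAANNGAAA (the core of the interferon-stimulated response element, ISRE) or to GGGNNNTTCC (an NF-kB site, here kB), and IRF and ISRE matches can overlap. Letters run 5′ to 3′ on the gene's strand. The positions are chr4:88522886-88522968 (minus) for Ifnb1, chr5:92348969-92349117 (minus) for Cxcl10, chr19:34583358-34583431 (plus) for Ifit3, chr19:34640770-34640828 (plus) for Ifit1, chr4:156200860-156200961 (minus) for Isg15 and chr12:26456536-26456587 (minus) for Rsad2.
Ifnb1: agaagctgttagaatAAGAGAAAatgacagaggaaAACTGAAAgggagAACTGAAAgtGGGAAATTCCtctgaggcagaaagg
Cxcl10: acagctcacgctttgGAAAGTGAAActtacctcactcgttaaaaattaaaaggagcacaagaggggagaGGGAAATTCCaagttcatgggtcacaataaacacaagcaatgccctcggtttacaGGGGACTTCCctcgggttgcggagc
Ifit3: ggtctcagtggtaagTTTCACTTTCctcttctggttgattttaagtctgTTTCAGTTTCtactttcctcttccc
Ifit1: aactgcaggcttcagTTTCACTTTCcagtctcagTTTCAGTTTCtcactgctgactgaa
Isg15: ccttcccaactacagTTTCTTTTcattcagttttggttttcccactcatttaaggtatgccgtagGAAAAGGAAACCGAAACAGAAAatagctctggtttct
Rsad2: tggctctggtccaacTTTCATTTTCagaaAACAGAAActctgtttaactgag

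The Ifnb1 stretch, 92 to 174 bases upstream of the start, held 3 IRF matches followed by 1 kB match, the arrangement of the known virus-responsive enhancer of this gene. Cxcl10 held 1 ISRE and 2 kB matches, while Ifit3 and Ifit1 held 2 ISRE matches each and Isg15 3. Over the genes with a window, an ISRE match stood within 250 bases upstream in 35 of 206 genes at least 2-fold higher (17.0%), in 4 of 385 at least 2-fold lower (1.04%), in 3.26% of 7507 tested genes and in 2.98% of all 32851 windows. The IRF motif was found in 72 of the 206 higher genes and in 16.9% of lower genes, against 18.8% of tested genes and 21.3% of all windows. The kB motif differed less, at 8.74%, 5.97%, 6.29% and 4.65%. Of the 22 named higher genes with a window, 13 held an IRF match and 10 an ISRE match, so such matches were not common to all. Neither window of Ifit2, the most unequal effector, held an IRF or ISRE match. A match is a description of letters and not of a bound site.

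Interferon-inducible GTPases attack the vacuoles of intracellular pathogens. Of 14 such genes 10 were at least 2-fold higher and 0 lower, against 2.78% and 5.45% over all genes. Their median log2 ratio was 1.47. Gbp5 (chr3:142493978-142522344, plus strand), a guanylate-binding protein, ranged from 0 to 25 UMIs per Ifnb1-expressing cell and was found in 32 cells, against 0 to 4 UMIs in 3 matched cells. Its totals of 119 and 6 UMIs gave a ratio of 19.8 (8.85 to 55.1). Gbp3 was 4.0-fold higher (3.04 to 5.33), Irgm1 3.43-fold (2.93 to 4.02) and Gbp2 2.73-fold (2.27 to 3.29). Gvin1 was near equality, with 63 and 55 UMIs.

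Class I antigen presentation differed less. The median log2 ratio was 0.59. Of 17 genes 3 were at least 2-fold higher and 0 lower, against 2.78% and 5.45% over all genes. These 3 were H2-T22, a non-classical class I molecule (2.95-fold, 2.16 to 4.06), Tap1, the peptide transporter (2.49-fold, 1.96 to 3.20), and Nlrc5, which activates class I transcription (2.06-fold, 1.44 to 2.99). The classical heavy chains H2-K1 and H2-D1 had ratios of 1.13 and 1.24, and B2m, their light chain, of 1.28. Cd274, which encodes the checkpoint ligand PD-L1, was 6.00-fold higher (3.31 to 11.8) on 78 and 13 UMIs. The class II gene H2-Aa had 61 UMIs against 3, of which 22 came from the cell with dendritic markers, and its log2 ratio was 0.86 against all 1076 comparison cells without matching. H2-Ab1 had 75 against 19 UMIs and Cd74, the invariant chain, 523 against 243, with 131 of the 523 in that cell.

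Of 20 chemokines and cytokines, 8 were at least 2-fold higher and 2 lower, against 2.78% and 5.45% over all genes. The count of lower genes is thus not far from the background. The median log2 ratio was 0.37. Cxcl10, which attracts T cells through CXCR3, ranged from 0 to 658 UMIs with a median of 15 in Ifnb1-expressing cells, and 70 of the 75 carried it. In matched cells it ranged from 0 to 188 with a median of 0, and 24 carried it. The ratio was 5.97 (5.44 to 6.56), and after thinning 62.7% of Ifnb1-expressing and 9.33% of matched cells were positive. Cxcl10 overlaps Art3 on the opposite strand.

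Ccl5, a chemokine that attracts T cells, was found in 45 Ifnb1-expressing and 16 matched cells, at 1803 and 225 UMIs (8.01-fold, 6.97 to 9.25). Il6 had 167 UMIs in 32 cells against 27 in 11 (6.19-fold, 4.10 to 9.67). Its log2 ratio was 0.36 after thinning, but few UMIs were left. A thinned draw found it in 3 Ifnb1-expressing cells and 1 matched cell. Some of the other high ratios came from single cells. In 1 cell each lay 82 of the 83 Il1b UMIs, 123 of the 145 Cxcl1 UMIs and 46 of the 49 Cxcl3 UMIs. Of the 21 Ccl2 UMIs, 15 also lay in 1 cell. Cxcl2 had 681 UMIs against 289, in 17 and 20 cells. Cxcl5, a neutrophil chemokine, and Ccl28, a mucosal chemokine, were the 2 lower genes, with log2 ratios of -2.45 and -1.34. Cxcl5 had 6 UMIs in 2 cells against 35 in 5 matched cells, and Ccl28 had 29 against 74. Cxcl16 and Cxcl17, both made by epithelia, had log2 ratios of 0.41 and 0.04.

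NF-kB pathway genes were at least 2-fold higher in 2 of 19 cases and lower in 0, against 2.78% and 5.45% over all genes. Their median log2 ratio was 0.17. Tnfaip3, which encodes the inhibitor A20, was 2.06-fold higher (1.87 to 2.27) and Nfkbie 2.16-fold higher (1.22 to 3.94). Nfkbia and Icam1 had log2 ratios of 0.49 and 0.55, and Ptgs2 had -0.16. Cell death genes were at least 2-fold higher in 3 of 21 and lower in 1, against 2.78% and 5.45% over all genes. Mlkl, which executes necroptosis, was 4.30-fold higher (2.93 to 6.49), Casp12 2.50-fold higher and Fas, a death receptor, 2.08-fold. The lower gene was Gsdmd, with 8 UMIs against 18 and an interval of the ratio that includes 1 (0.167 to 1.07).

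Stress lists showed 0 genes past 2-fold in either direction, near the background for lists of this size. The immediate early and heat shock list holds genes that respond to tissue digestion. Its 20 genes had a median log2 ratio of 0.17. The heat shock genes were lower, at -0.80 for Hspa1a, -0.77 for Hsph1, -0.75 for Hsp90aa1, -0.62 for Dnajb1 and -0.43 for Hspa1b. The other genes of this list lay between -0.14 (Jund) and 0.83 (Fos), with Jun at 0.23. Of 12 genes of the integrated and endoplasmic reticulum stress responses the median was 0.20. The list of cell cycle genes had 6 tested members with 0 past 2-fold. Its median of -0.18 rested on few UMIs and was -3.32 over 20 genes with 3 matched cells per Ifnb1-expressing cell.

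Of 16 tested oestrogen response genes, 0 were at least 2-fold higher and 2 lower, with a median log2 ratio of -0.46, or 0.02 where gate genes had to reach 1% of UMIs. Over all genes 5.45% were lower, so 2 of 16 is not far from the background. The 2 lower genes were Pgr, the progesterone receptor, with 27 UMIs against 100 (log2 ratio -1.87), and Aqp5, a water channel, with 279 against 614 (-1.14). Abundant members differed among themselves. Ltf had 5130 against 5640 UMIs, Lcn2 (lipocalin 2) 15196 against 14239 and C3 6831 against 6473, while Sprr2f and Clca1 were lower, with log2 ratios of -0.50 and -0.75. Esr1, the oestrogen receptor, had 234 against 315 UMIs. Padi1, Padi2, Padi4 and Greb1 were also lower, with log2 ratios of -0.84, -0.87, -0.66 and -0.52. Above 0 were Cited1, Muc4 and Muc1, with 0.63, 0.25 and 0.21. Of 8 luminal epithelial genes, Lpar3, a lysophosphatidic acid receptor needed for timely implantation, was higher at 128 against 50 UMIs, and Krt13 lower at 8 against 81. Only 1 gene each of the glandular and ciliated lists was tested, so these cells could not be placed within the epithelium by them.

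Beyond the lists, the 25 genes with the highest interval limits included Polr2g, an RNA polymerase II subunit (692 against 159 UMIs), and Neurl3, a ubiquitin ligase (194 against 27). Ccrl2, an atypical chemokine receptor, had 74 against 6 UMIs, and Rbm43 had 96 against 12. Kalrn (90 against 16) and Insl6 (59 against 9) were found in 42 and 29 cells. After thinning their log2 ratios were 0.49 and 0.00, but few UMIs were left. In a thinned draw Kalrn was found in 5 Ifnb1-expressing and 0 matched cells, and Insl6 in 1 and 0. Phf11b and AU020206 had ratios of 8.14 and 4.87. Ifit1bl1, of the effector list, had a ratio of 4.73, which came to a log2 ratio of 0.85 against all 1076 comparison cells without matching.

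The 10 leading lower genes were found in 8 to 26 of the 75 matched cells. The small proline-rich proteins Sprr2b, Sprr2d and Sprr2e, near-identical family members of the cornified envelope whose reads may be shared, had 40 against 701, 52 against 720 and 13 against 368 UMIs. Sprr2f, the most abundant of the family, was far closer, with 11921 against 16843. Nqo1, a quinone reductase, had 4 against 124 UMIs in 11 matched cells, and Dmkn 13 against 179 in 13. For the other 5 a single matched cell gave most of the counts: 108 of 135 for S100a4, 100 of 142 for Akr1b8, 77 of 88 for Tmem267, 108 of 116 for Nppc and 302 of 585 for Spink12.

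Summed over the 33 antiviral effectors, transcripts of these genes made up 0.106% to 4.07% of a cell's UMIs in Ifnb1-expressing cells, with a median of 1.40%. Matched cells ranged from 0.0390% to 2.72% with a median of 0.260%. The Ifnb1-expressing cell was the higher of its pair in 66 of 75 pairs, but the groups overlapped. Of the matched cells 4 (5.33%), and of all 1076 control epithelial cells without Ifnb1 77 (7.16%), lay above the median of the Ifnb1-expressing cells. The highest value in the 1001 unmatched epithelial cells was 3.61%, around a median of 0.256%.

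Other cells of the tissue help to place these levels. Ptprc-positive cells of the control library had a median of 0.221% and reached 12.5%, and collagen-gate cells had a median of 0.0834%. In the library labelled cKO, epithelial cells had a median of 0.0634% and none exceeded 0.359%, although they were deep. That maximum lies below the median of the control Ifnb1-expressing cells, as the plot of effector shares by cell group shows. Isg15 stood at 18.9 CPM in cKO epithelial cells, Cxcl10 at 13.8 CPM and Rsad2 at 5.03 CPM, and Ifit2 at 0. The 1001 other control epithelial cells without Ifnb1 stood at 411, 154, 302 and 13.5 CPM, and the 75 cells, chosen by Ifnb1, at 2139, 1102, 1215 and 189 CPM.

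**Figure D4:**
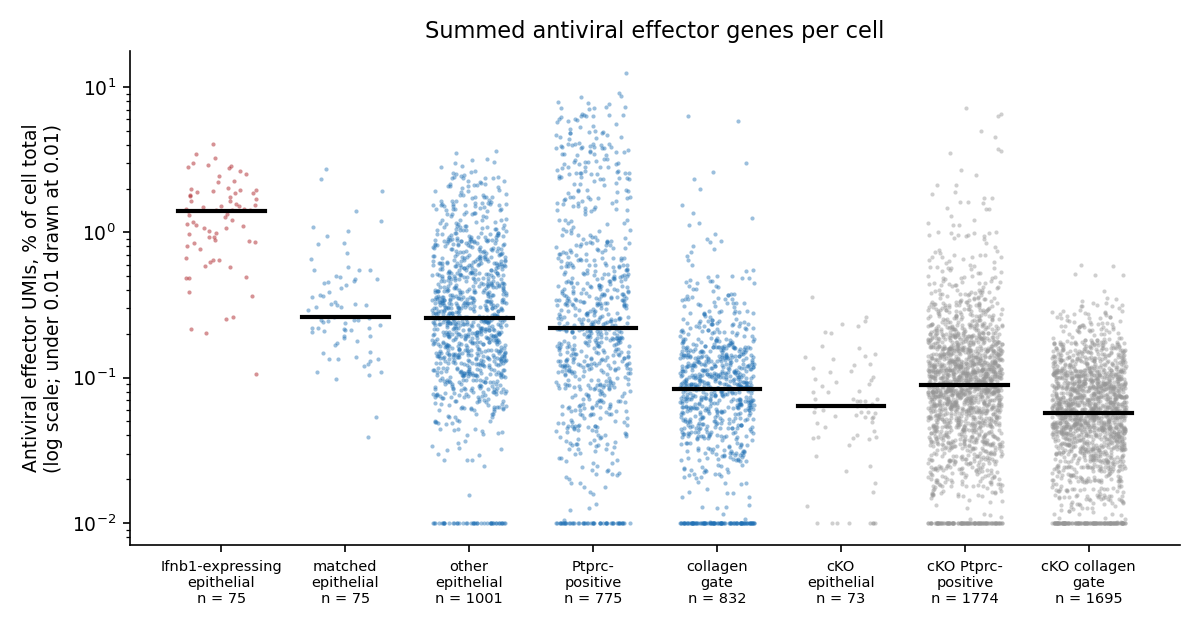
Share of each cell's UMIs from 33 antiviral effector genes (log scale, values under 0.01% drawn at 0.01%), 1 point per cell, with the median as a bar, for groups of the control library (red and blue) and of the library labelled cKO (grey). The 75 Ifnb1-expressing cells have a median of 1.40%, and the 73 cKO epithelial cells a median of 0.0634%.

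Within the 75 cells, effector transcripts were above the matched level at low and at high Ifnb1 counts. Cells with 1, 2 to 9 and 10 or more Ifnb1 UMIs stood at 27.0, 137 and 620 CPM of Ifnb1, and their median effector shares were 1.28%, 1.33% and 1.56%, against 0.234%, 0.362% and 0.248% in their matched cells. Against their own matched cells the summed effectors were 2.28-fold (2.17 to 2.38), 2.84-fold (2.72 to 2.96) and 3.91-fold (3.78 to 4.04) higher. The Ifnb1-expressing cell was the higher in 17 of 20, 26 of 31 and 23 of 24 pairs. The summed ratio, which weights deep cells, was larger in the higher bands, while the distance between the medians was smallest in the middle band. From haemoglobin transcripts, 0.0899% of the UMIs of the 75 cells and their matched cells was estimated to be cell-free. This is a rough figure, as those cells held only 13 haemoglobin UMIs. Other markers would give larger shares. Mast cell markers stood at 2.48 CPM in the 75 cells against 822 in cell-free RNA, and T or NK markers at 0.354 against 80.3.

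Single genes differed in how they followed Ifnb1. Cxcl10 was 2.68-fold (2.03 to 3.57) above matched cells in the band with 1 Ifnb1 UMI, 8.04-fold (6.45 to 10.1) with 2 to 9 and 6.06-fold (5.42 to 6.80) with 10 or more, at 256, 819 and 1824 CPM. Ccl5 was 6.62-fold, 14.5-fold and 7.18-fold higher, and Isg15 3.71-fold, 5.88-fold and 7.58-fold. Class I antigen presentation was nearly flat, at 1.43-fold, 1.25-fold and 1.26-fold. Across the 75 cells the Spearman correlation with Ifnb1 CPM was 0.64 for Cxcl10, 0.46 for the summed effectors, 0.34 for Isg15, 0.18 for Ifit2 and 0.11 for Ccl5. Every point shares the cell's total UMIs as denominator and comes from 1 library, and Ifnb1 CPM itself correlated at -0.57 with total UMIs, so these are descriptions.

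Interferon lambda was found mostly in the cells with the highest Ifnb1 counts. A UMI of Ifnl2 or Ifnl3 was found in 15 of the 75 cells (interval 11.7% to 30.8%). By band it was found in 0 of 20 cells with 1 Ifnb1 UMI, 2 of 31 with 2 to 9 (6.45%) and 13 of 24 with 10 or more (54.2%, 32.8% to 74.5%), up to 18 UMIs in a cell. The highest band was also the deepest, with a median of 44581 UMIs against 18859 and 13560. No matched cell had either gene, 0 of 75, which allows up to 4.0%. In all 1076 control epithelial cells without Ifnb1, 5 did (0.465%), and in the other 2502 control cells 1 did. In the library labelled cKO 1 of 4950 cells had an Ifnl3 UMI, and 0 of its 73 epithelial cells.

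**Figure D5:**
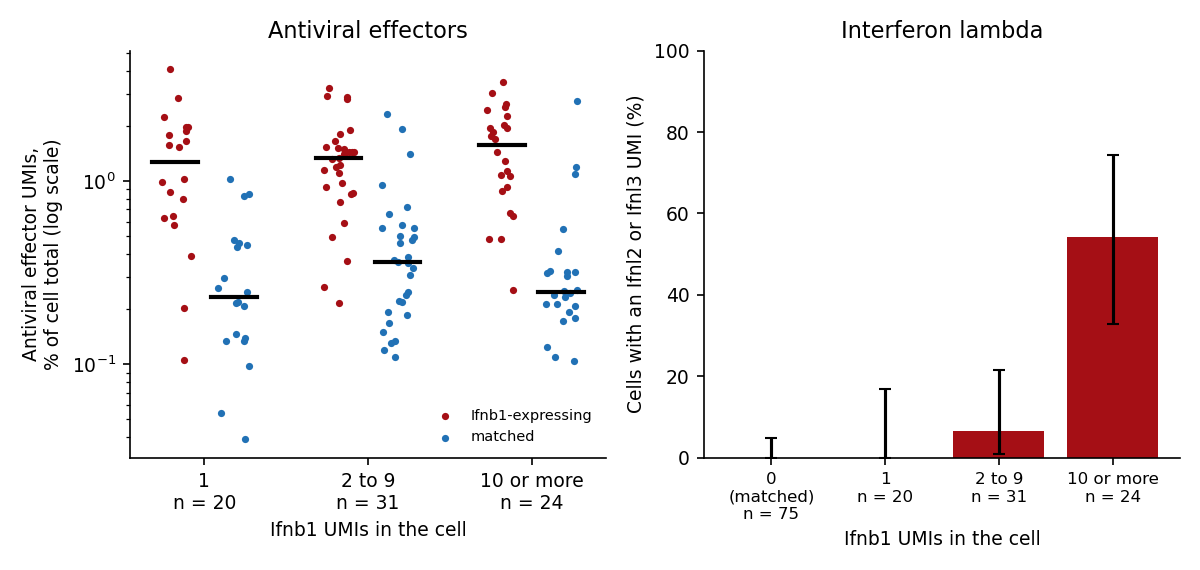
Left, share of each cell's UMIs from antiviral effectors (log scale) in Ifnb1-expressing cells and their matched cells by Ifnb1 UMI band, 1 point per cell with median bars; right, percent of cells with an Ifnl2 or Ifnl3 UMI by band, with exact binomial 95% intervals. Medians of Ifnb1-expressing cells are 1.28%, 1.33% and 1.56%, and interferon lambda is found in 0 of 20, 2 of 31 and 13 of 24 cells.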

How the data were processed

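The authors deposited raw UMI counts per gene and barcode, unfiltered, for 2 libraries. The matrix header names Cell Ranger 4, whereas the submitters' processing notes name Cell Ranger 6.1.1 and the build mm10, and which of them made the deposited counts is not given in the sources used here. A barcode counted as a cell with 500 or more detected genes and no more than 20% of UMIs from mitochondrial genes. Of the gene identifiers, 99.61% were found in GENCODE M21 on GRCm38, used for coordinates. Each Ifnb1-expressing cell, deepest first, was paired without reuse with the nearest epithelial cell of the control library by log total UMIs. Counts were summed over cells. Ratios carry exact conditional binomial intervals, CPM exact Poisson intervals and shares exact (Clopper-Pearson) binomial intervals, all at 95% and all for counting error only, since reads of 1 library are not replicates. A count of 0 was taken to allow 3 counts. "At least 2-fold" is a size and not a test.

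The cells and the gene lists were chosen with earlier results of these data known. Named genes were the 25 highest and 10 lowest when ranked on the bound of the ratio's interval closest to 1. They needed 50 UMIs in the higher set and presence in 10% of its cells. Genes of mitochondria, ribosomes, haemoglobin and immunoglobulins, predicted genes without a name, Ifnb1, the 6 gate genes and Ptprc were left out. Examples from each list come beside them, and list genes singled out for a single cell's share or a low level were chosen after their values were seen. Doublets were scored with Scrublet in scanpy 1.11.5 and not removed; the automatic limits of 0.550 and 0.585 were not used. TMM factors came from edgeR 4.0.16, without a test. The matching and ratios were tested on simulated data. Alternatives covered cell filters, gate share, Ifnb1 minimum, doublets, matching, averaging, thinning, scaling, cell-free RNA, the 5 highest cells and the UMI minimum. Leaving out cells with markers of another type, and matching also on mitochondrial share, were added after the data were seen. A few genes of the lists are not reported here.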

Additional observations from a re-analysis of the deposited data

How the results depend on the processing

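The number of Ifnb1-expressing cells was 49 with at most 10% mitochondrial UMIs and 22 with gate genes at 1% of UMIs or more. Their share of control epithelial cells was 5.06% with at most 10% mitochondrial UMIs, 4.78% with at least 2 Ifnb1 UMIs and 2.64% after thinning to 1000 UMIs, and in cKO epithelial cells it was 0 under every alternative run. Genes at least 2-fold higher and lower numbered 619 and 1112 when CPM was averaged over cells, and 75 and 65 of 1153 after thinning. They numbered 165 and 241 of 7411 with a minimum of 50 UMIs, and 1811 and 2967 of 16027 with no minimum. Against all 1076 comparison cells without matching 264 were higher and 1215 of 11950 lower. The median log2 ratio of antiviral effectors was 1.94 over the 20 genes left after thinning and lay between 1.16 and 1.94 under all alternatives. That of GTPases rested on 1 gene after thinning (3.35). The cell cycle median was -3.32 with 3 matched cells, -2.90 without matching, -0.96 with no minimum and -1.68 with matching on mitochondrial share. Those of the glandular (-1.77 to 1.31) and ciliated (-4.31 to -2.32) lists rested on 1 to 3 genes. The cause was not tested. No named gene changed sign, nor did the median of an interferon, sensor, IRF and STAT, effector, GTPase, class I, chemokine, cell death or ciliated list. The medians of the other 8 lists, all reported within 2-fold, crossed 0 under some alternative: glandular, cell cycle (highest 0.30), NF-kB (-0.09 to 0.57), immediate early (-0.08 to 0.68), integrated and ER stress (-0.33 to 0.36), oestrogen (-0.49 to 0.02), luminal (-0.58 to 0.17) and further epithelial genes (-0.15 to 0.13). Of the named genes, 6 came within 2-fold under an alternative: Il6 (log2 0.36), Insl6 (0.00) and Kalrn (0.49) after thinning, Ifit1bl1 (0.85) without matching, H2-Aa there (0.86) and with 3 matched cells (0.99), and Nppc (-0.39 from -4.16) with doublets or cells with other markers removed. The thinned values of Il6, Insl6 and Kalrn rested on few UMIs. Wide ranges were also seen for Nqo1 (-7.33 to -2.32), Akr1b8 (-6.46 to -1.59) and Ifnl3 (2.32 to 7.09). Of 525 values of named genes under alternatives, 377 stayed within their interval. No paired analysis was possible because control and cKO are 1 library each; pairs of cells on total UMIs lie within the control library. Genes with few UMIs, such as Ifne and the receptors, are limited by depth.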

Other observations

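Ifnb1 was also counted in 21 control cells outside the epithelial gate. Of these, 5 had Ptprc UMIs, and 10 of the other 16 had at least 3 gate genes detected but under 0.3% of UMIs from them. Among the 119 control cells of that borderline kind 8.40% had Ifnb1 (4.10% to 14.9%), with 77 Ifnb1 UMIs and 116 CPM, against 6.52% of cells inside the gate. Of 19 cells that met the gate but for Ptprc, 2 had Ifnb1, with 13 and 3 UMIs, and 1.21% of UMIs from gate genes in the latter.

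The highest Ifnb1 count outside the gate was 79, in a Ptprc-positive cell with 44815 UMIs, 0 gate genes and 3.94% of its UMIs from antiviral effectors. A further Ptprc-positive cell with 5 Ifnb1 UMIs had 7.77% effectors. Effector levels as high as those of the 75 epithelial cells therefore also occurred in cells of other kinds. In Ptprc-positive cells of the control library Rsad2 stood at 2108 CPM and Cxcl10 at 864 CPM, and in those of the library labelled cKO at 215 and 91.3 CPM.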
